A study of Rattus norvegicus with 12 samples.

Results

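The SLC25 genes encode the mitochondrial carrier family, which was described here in failing and control rat hearts. Its members were every probe set annotated to exactly 1 gene symbol beginning with Slc25a. This rule gave 58 probe sets for 40 genes, out of 14217 genes with a symbol of their own on the array. It used symbols alone, but the family was chosen with earlier results of these data known. A gene had 1 probe set in 28 cases and more in 12. A further 2 probe sets were left out because their annotation lists several gene entries.

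Rat heart tissue was measured on 12 one-colour oligonucleotide arrays, 6 of Failing hearts and 6 of Control hearts, each a biological replicate by the labels. The series concerns the passage from compensated hypertrophy to systolic failure in the spontaneously hypertensive rat, a strain that develops high blood pressure and later heart failure. What strain and age the Control animals had, how old the Failing animals were and which chamber was sampled are not in the labels used here, so the Control hearts are described by that label alone. The labels name no treatment in either group, and the captopril-treated groups named in the protocol were not analysed here. The tissue field gives heart, although another field mentions a cell line. Of the cardiomyocyte markers, 9 of 10 were measured and 0 of these 9 lay under an intensity of 50 on all arrays.

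Mitochondrial carriers are small proteins of the inner mitochondrial membrane, built from repeats of a module that crosses the membrane. Each moves a restricted set of nucleotides, phosphate, keto acids, amino acids, acylcarnitines, cofactors or ions between cytosol and matrix. In heart muscle they pass ADP and phosphate in and ATP out, carry reducing equivalents through the malate-aspartate shuttle and bring fatty acids to the matrix as acylcarnitines. They are encoded in the nucleus and are inserted by the translocases of the outer and inner membranes.

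No carrier probe set passed the test between Failing and Control hearts, and most of the measurable ones leaned lower in Failing hearts. Values are log2 of the deposited intensity, differences are Failing minus Control with the standard error (SE) of limma's moderated fit, and a probe set was called at a Benjamini-Hochberg adjusted p under 0.05. Over all 31042 probe sets, 0 of the 58 members were called, with a lowest adjusted p of 0.178, and the background was 0%. Unadjusted p was under 0.05 for 9 members, or 15.5%, of which 8 were lower and 1 was higher, beside 14.5% of all probe sets. Dim probe sets vary widely on this scale, so a second fit took the brighter 15521 probe sets, those with a mean log2 intensity at or above the median of 6.94. It held 43 members from 32 genes.

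In the brighter fit 0 of 43 members were called, and the lowest adjusted p was 0.0522. The background in that fit was 2.76% of probe sets called higher and 1.48% called lower. Unadjusted p was under 0.05 and the difference negative for 10 members from 7 genes, which is 23.3%, beside 12% of all brighter probe sets. For the positive direction there were 3 members, or 6.98%, beside 13.2%. The 2 groups separated without overlap for 0 members, beside 2.62% of brighter probe sets. Differences lay below 0 for 29 members and above 0 for 14, so 67.4% were below 0, beside 50.1% of all brighter probe sets. The median member difference was -0.15, beside 0 over all brighter probe sets, and the range was -0.82 to 0.50.

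**Figure D1:**
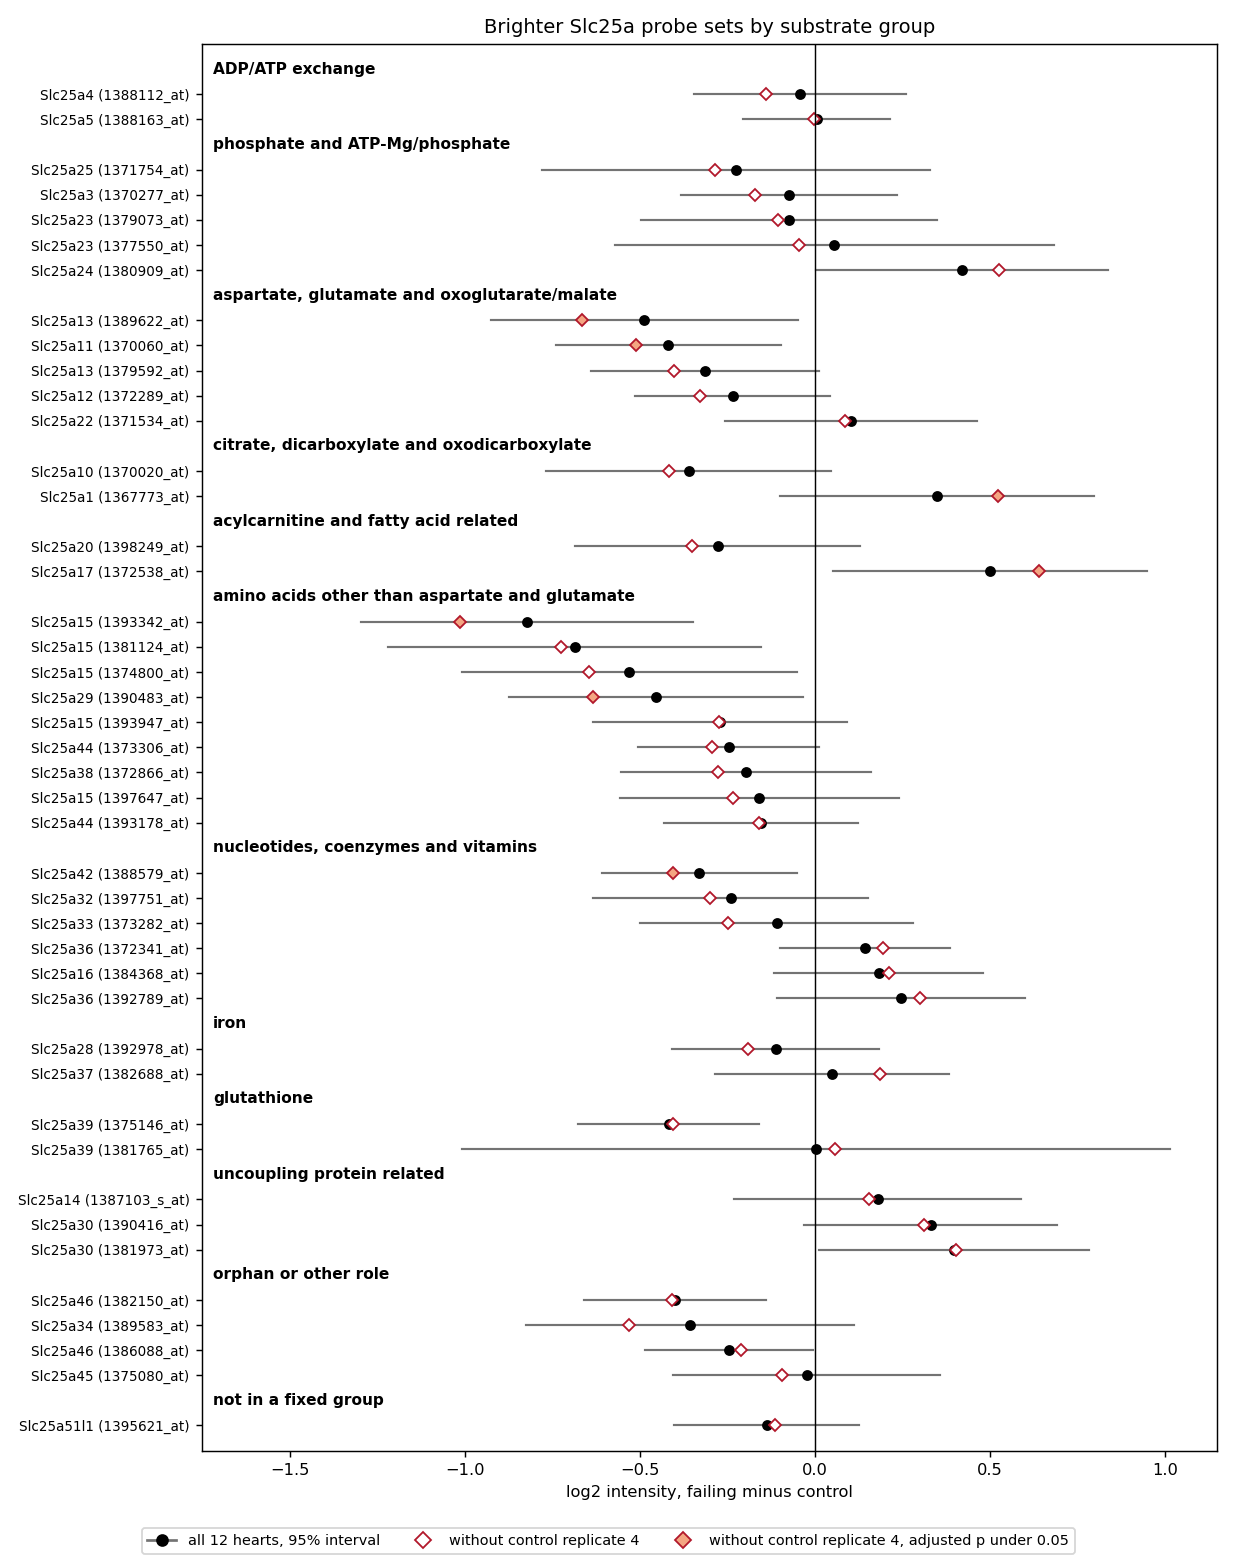
Differences in log2 intensity, Failing minus Control, of the 43 brighter carrier probe sets, grouped by substrate. Black points with bars are the differences over 12 hearts with 95% intervals, and diamonds are the differences without Control replicate 4, filled where the adjusted p was under 0.05. The differences run from -0.82 to 0.50, 29 lie left of 0, and 7 diamonds are filled. Control replicate 4 was singled out after these values were seen.

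One library bears on most of these values. Control replicate 4 was the lowest Control heart for 18 of the 43 members and the highest for 8. For 32 members it lay nearer to the Failing mean than to the mean of the other Control hearts. It also had the lowest summed cardiomyocyte marker intensity, 260887, where Failing hearts ranged from 269685 to 407201 and the other Control hearts from 364176 to 415232. Its 3' minus 5' log2 difference was the lowest of the 12 hearts for both the beta-actin control, 0.486, and the Gapdh control, 0.234. Without it, 5 members passed as lower (11.6%, beside 6.75% of brighter probe sets) and 2 as higher (4.65%, beside 6.67%). Calls over all brighter probe sets rose from 659 to 2083. The median member difference was then -0.21, beside 0.01 over all brighter probe sets. Leaving out Failing replicate 5 instead gave 4 lower members (4.25% of brighter probe sets were called lower), 2 probe sets of Slc25a15 (-0.91 and -0.68) and 1 each of Slc25a39 and Slc25a46 (both -0.44). Each of the 7 calls without Control replicate 4 is given below with its value over all 12 hearts. Apart from Slc25a15, each passed on leaving out that heart alone. With another single heart left out, adjusted p rose as high as 0.531 for Slc25a1, 0.311 for Slc25a29 and 0.298 for Slc25a13. It rose to 0.295 for Slc25a17, 0.262 for Slc25a42, 0.217 for Slc25a11 and 0.114 for Slc25a15. In other measures Control replicate 4 did not stand alone. Its median Spearman correlation with the other arrays was 0.924, and that of the next lowest array was also 0.924. It had the highest endothelial marker sum of the Control hearts, 13262 beside 10275 to 11566 in the others, and the lowest fibroblast sum, 44668 beside 47342 to 70080. What sets Control replicate 4 apart was not tested. It was singled out after the member values were seen. Leaving out a Control heart that lies nearer to the Failing mean tends to widen the differences. The calls without it are therefore a description and add no support.

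Markers of other cell types also moved between the groups. Of 9 fibroblast markers 3 were called higher, with summed intensities of 53299 to 115559 in Failing hearts and 44668 to 70080 in Control hearts. Of 9 macrophage markers 4 were called higher, with sums of 19015 to 43305 in Failing hearts and 13003 to 19849 in Control hearts. Of 6 measured endothelial markers 1 was called higher. The background for higher calls was 2.76% of brighter probe sets. Some markers had lower means in Failing than in Control hearts: the macrophage marker Adgre1 (216 against 294) and the endothelial markers Kdr (3199 against 3427) and Tie1 (590 against 753). Smooth muscle markers gave 0 calls of 4, with sums of 2522 to 5885 (median 3688) in Failing hearts and 1598 to 2849 (median 2484) in Control hearts. None of the 9 cardiomyocyte markers measured was called. Their sums were 269685 to 407201 (median 352827) in Failing hearts and 260887 to 415232 (median 401684) in Control hearts. Mean intensity was lower in Failing hearts for each of the 9, from Myl2 (48993 against 49070) to Myh6 (19601 against 37255). Atrial cardiomyocyte markers gave 0 calls of 4, with sums of 48874 to 65670 in Failing hearts and 38536 to 72711 in Control hearts. The mean was lower in Failing hearts for Myl7 (823 against 1969), Myl4 (929 against 1231) and Sln (334 against 565). For Nppa it was higher (53803 against 49869). The highest single value was 10679 for Myl7 and 6171 for Myl4. Whether any sample held atrial tissue was not tested. Only 1 of 7 measured lymphocyte markers was bright enough to enter the fit that made calls, and it was not called. Of 4 measured adipocyte markers 2 lay under an intensity of 50 on every array. In whole tissue, fewer cells of a type and less RNA per cell cannot be told apart, and the part of these shifts in the carrier values was not tested.

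**Figure D2:**
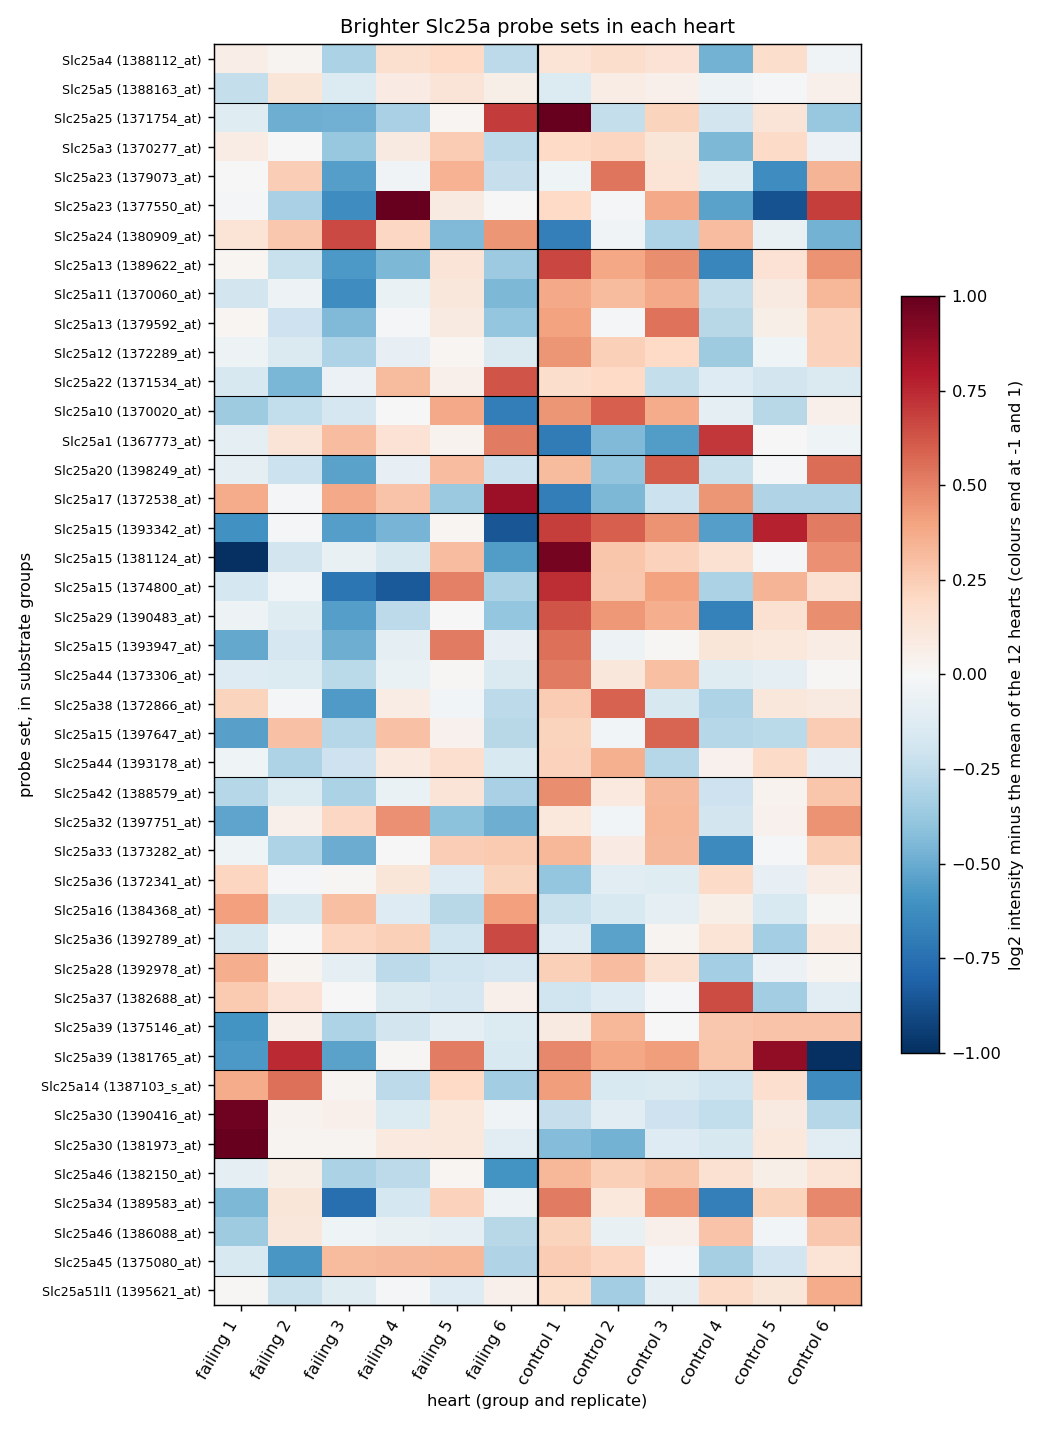
Log2 intensity of the 43 brighter carrier probe sets in each heart, minus the mean of the 12 hearts, with Failing hearts on the left and Control hearts on the right, and colours ending at -1 and 1. The column of Control replicate 4 is the lowest Control column in 18 of the 43 probe sets and the highest in 8. Failing replicate 5 is the highest Failing column in 20.

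The ADP/ATP carriers and the phosphate carrier, which together supply the ATP synthase, gave close values in the 2 groups. Slc25a4, the main ADP/ATP exchanger of heart and skeletal muscle, had log2 intensities of 15.05, 15.41 and 15.56 (lowest, median and highest) in Failing hearts and 14.89, 15.50 and 15.54 in Control hearts. The groups overlapped almost throughout, and the lowest value of all belonged to Control replicate 4. The difference was -0.04 ± 0.14 (SE, n = 6 each), a fold of 0.971 with a 95% interval of 0.788 to 1.197. Its value was -0.14 without Control replicate 4 and turned to 0.02 under quantile normalization. Slc25a5, the ADP/ATP exchanger found in most tissues, had 13.69, 14.00 and 14.06 in Failing hearts and 13.79, 13.95 and 14.00 in Control hearts. The difference was 0.01 ± 0.10, a fold of 1.004 with an interval of 0.868 to 1.162, and its sign depended on which heart was left out. Slc25a31, an ADP/ATP carrier known mainly from testis, was among the dimmer probe sets, at 3.60 to 6.33 in Failing hearts and 2.70 to 6.37 in Control hearts.

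Slc25a3, which imports phosphate with protons, had log2 intensities of 14.92, 15.34 and 15.55 in Failing hearts and 14.85, 15.46 and 15.51 in Control hearts. These ranges overlapped, and the difference of -0.07 ± 0.14 corresponds to a fold of 0.95 with an interval of 0.767 to 1.177. It was -0.17 without Control replicate 4, the lowest Control heart, and -0.01 without Failing replicate 3, and neither was called. RefSeq lists 9 Slc25a5 and 2 Slc25a3 pseudogenes in the rat, and whether these probe sets also bind their transcripts was not tested. The ATP-Mg/phosphate carriers differed among themselves in sign. Slc25a24 had 9.06, 9.74 and 10.16 in Failing hearts and 8.83, 9.31 and 9.81 in Control hearts, and 2 of 6 Failing hearts lay above every Control heart. Its difference was 0.42 ± 0.19 (adjusted p = 0.195). Both brighter probe sets of Slc25a23 (-0.07 and 0.06) and that of Slc25a25 (-0.23) were also not called, and Slc25a41 was measured only among the dimmer probe sets.

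The promoters of Slc25a4 and Slc25a3 are printed because they head the family in the heart's energy supply and both hold the core letters bound by ETS and GABP factors, among the known regulators of nuclear genes for mitochondrial proteins. The sequences are RefSeq's for assembly GRCr8, 300 bases from 250 before to 50 after the annotated start, 5′ to 3′ on the gene's strand, with the match in capitals. Slc25a4 lies at chr16:52805271-52805570 on the plus strand and Slc25a3 at chr7:27506578-27506877 on the minus strand.
Slc25a4: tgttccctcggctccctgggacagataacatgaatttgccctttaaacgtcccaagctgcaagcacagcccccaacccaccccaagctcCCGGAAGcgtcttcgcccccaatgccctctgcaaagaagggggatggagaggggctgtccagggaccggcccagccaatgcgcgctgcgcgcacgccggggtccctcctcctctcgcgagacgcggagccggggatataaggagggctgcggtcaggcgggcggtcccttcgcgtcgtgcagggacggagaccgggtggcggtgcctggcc
Slc25a3: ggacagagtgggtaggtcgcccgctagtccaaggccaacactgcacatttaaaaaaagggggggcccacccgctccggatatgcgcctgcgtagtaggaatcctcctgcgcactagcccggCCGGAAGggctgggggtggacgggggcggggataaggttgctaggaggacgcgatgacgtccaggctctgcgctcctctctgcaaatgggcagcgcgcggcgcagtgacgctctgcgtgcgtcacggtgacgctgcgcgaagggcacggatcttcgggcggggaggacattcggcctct
Both strands were searched for 3 motifs in the 35 promoter entries that matched 34 of the 40 genes. CCGGAAG, the ETS and GABP core, was in 6 entries (17.1%, beside 8.75% of all 33469 promoters), those of Slc25a3, Slc25a4, Slc25a14, Slc25a17, Slc25a20 and Slc25a38. GCGCANGCG, the core for nuclear respiratory factor 1, was in 2 entries (5.71%, beside 5.80%), those of Slc25a31 and Slc25a42. TNAAGGTCA, an estrogen-related receptor element, was in 0 entries, beside 1.2% of all promoters. The 6 genes with CCGGAAG had differences of both signs, and a match of letters describes the window alone.

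**Figure D3:**
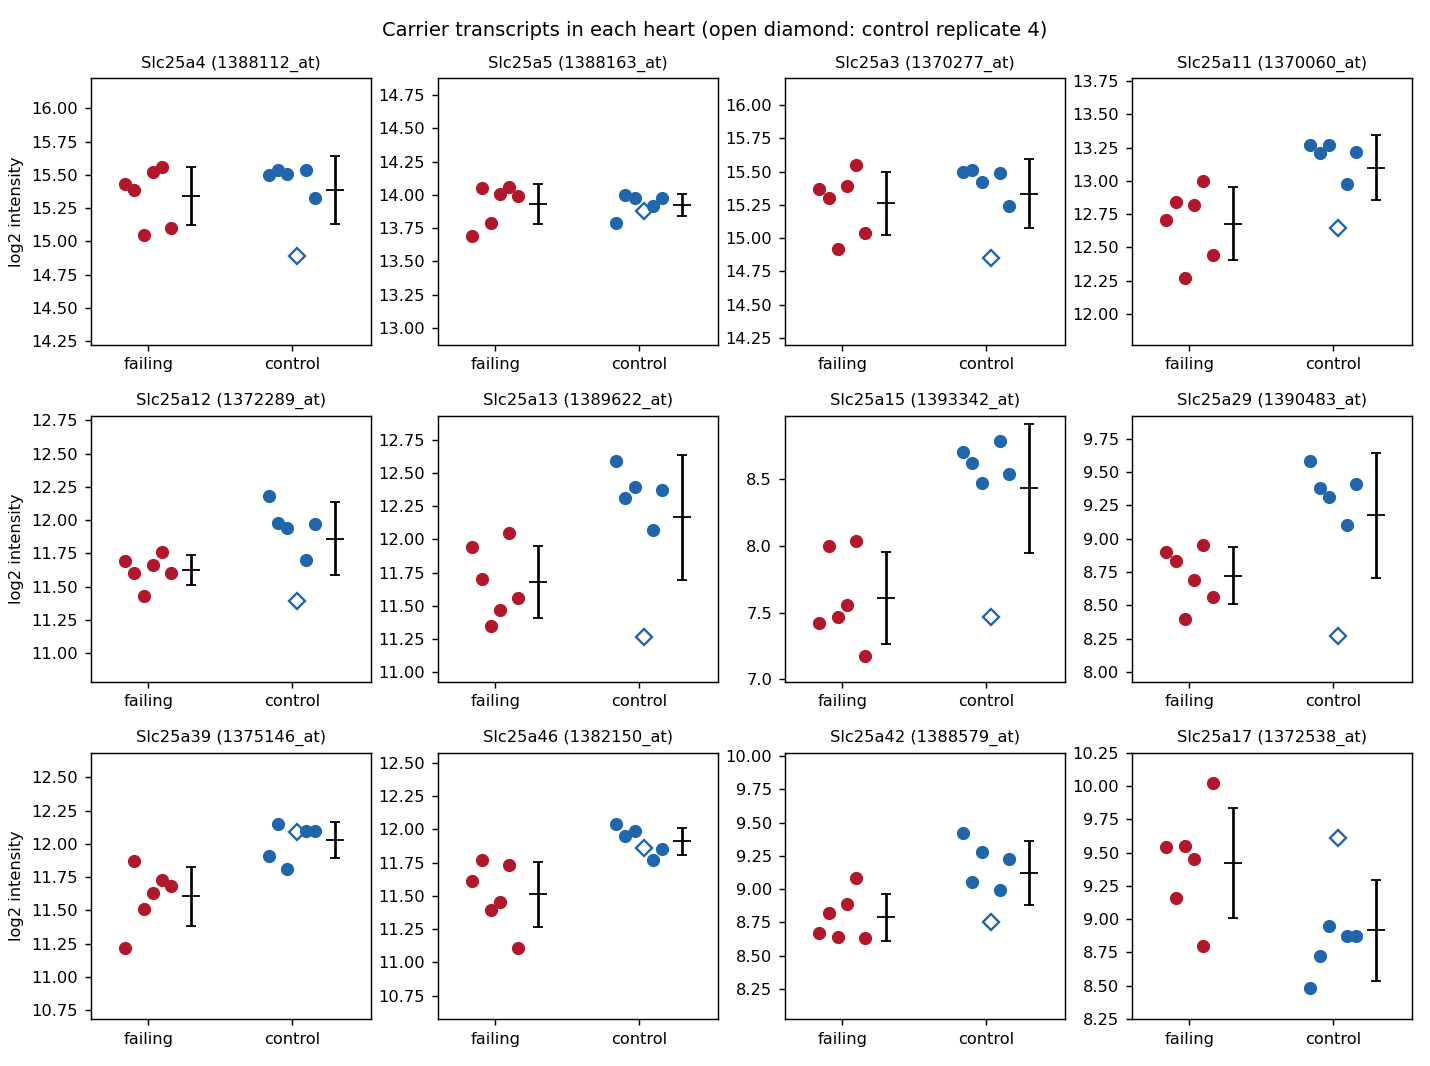
Log2 intensity of 12 carrier probe sets in each heart, Failing on the left and Control on the right of each panel. Points are hearts, bars are means with SD, and the open diamond is Control replicate 4. In no panel do the groups separate completely. Slc25a39 and Slc25a46 come nearest, each with 5 of 6 Failing hearts below every Control heart.

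The carriers of the malate-aspartate shuttle, which brings cytosolic reducing equivalents into the matrix, leaned lower. Across the 5 brighter probe sets for aspartate, glutamate and oxoglutarate carriers, 4 differences were below 0 and the median was -0.31, beside 0 for all brighter probe sets. Slc25a11, which exchanges oxoglutarate for malate, had log2 intensities of 12.28, 12.77 and 13.00 in Failing hearts and 12.65, 13.22 and 13.27 in Control hearts. In 2 of 6 Failing hearts it lay below every Control heart. The difference was -0.42 ± 0.15 (fold 0.748, adjusted p = 0.108). It passed without Control replicate 4, at -0.51 ± 0.14 (adjusted p = 0.0303).

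Of the aspartate/glutamate exchangers, Slc25a13 (citrin) was measured by a probe set with log2 intensities of 11.35, 11.63 and 12.05 in Failing hearts and 11.27, 12.34 and 12.59 in Control hearts. The lowest value was that of Control replicate 4, 11.27, and the other 5 Control hearts began at 12.07, just above the highest Failing heart. The difference was -0.49 ± 0.20 (adjusted p = 0.16) over 12 hearts and -0.67 ± 0.14 (adjusted p = 0.017) without that library. Its second probe set differed by -0.31 ± 0.15 (adjusted p = 0.215). Slc25a12 (aralar), the form most associated with muscle and brain, had 11.43, 11.63 and 11.76 in Failing hearts and 11.39, 11.96 and 12.18 in Control hearts. The ranges overlapped and the difference was -0.24 ± 0.13 (adjusted p = 0.274). Slc25a22, a glutamate carrier, differed by 0.10, and the other glutamate carrier, Slc25a18, was among the dimmer probe sets.

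The shuttle's enzymes and the carriers for citrate and dicarboxylates gave no calls. Of 5 brighter probe sets for the shuttle enzymes 0 were called and the median difference was -0.27. The one with the smallest p was Got2, the mitochondrial aspartate aminotransferase, at -0.31 ± 0.15 (adjusted p = 0.218). Slc25a1, which exports citrate, had log2 intensities of 8.04, 8.27 and 8.65 in Failing hearts and 7.43, 7.89 and 8.84 in Control hearts. The highest and lowest values were both from Control hearts, and the difference was 0.35 ± 0.21 (adjusted p = 0.313). Without Control replicate 4 it passed as higher, at 0.52 ± 0.16 (adjusted p = 0.0431). Slc25a10, the dicarboxylate carrier, had 7.39, 7.87 and 8.47 in Failing hearts and 7.80, 8.29 and 8.68 in Control hearts. These overlapped, with a difference of -0.36 ± 0.19 (adjusted p = 0.253), and its dim companion probe set had the opposite sign at 0.62. Slc25a21, the oxodicarboxylate carrier, was among the dimmer probe sets.

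Fatty acids reach the matrix as acylcarnitines through Slc25a20. Its log2 intensities were 11.59, 11.97 and 12.44 in Failing hearts and 11.73, 12.27 and 12.73 in Control hearts. The groups overlapped, and the difference was -0.28 ± 0.19 (adjusted p = 0.379). Of 6 brighter probe sets for carnitine shuttle enzymes 0 were called and the median was -0.28. Crat, carnitine acetyltransferase, had the smallest p at -0.65 ± 0.21 (adjusted p = 0.0842). Without Control replicate 4, 3 of the 6 passed as lower, beside 6.75% of brighter probe sets.

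Slc25a17, the peroxisomal member that carries coenzyme A and other cofactors, had the highest difference of the brighter family. Its log2 intensities were 8.80, 9.49 and 10.02 in Failing hearts and 8.48, 8.87 and 9.61 in Control hearts. In 1 of 6 Failing hearts it lay above every Control heart. The difference was 0.50 ± 0.21 (fold 1.415, adjusted p = 0.157). It passed as higher without Control replicate 4, at 0.64 ± 0.19 (adjusted p = 0.0408). Its promoter, printed as the family's most positive difference and on the same terms as above, lies at chr7:114767114-114767413 on the minus strand and holds CCGGAAG near its 3′ end.
Slc25a17: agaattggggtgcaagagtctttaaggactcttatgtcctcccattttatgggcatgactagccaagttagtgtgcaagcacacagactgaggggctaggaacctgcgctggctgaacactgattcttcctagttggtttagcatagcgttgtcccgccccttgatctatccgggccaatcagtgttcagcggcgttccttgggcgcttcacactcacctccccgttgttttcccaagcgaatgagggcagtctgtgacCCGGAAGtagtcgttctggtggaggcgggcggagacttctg

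The amino acid carriers other than those for aspartate and glutamate leaned lower in every brighter probe set. All 9 of their brighter probe sets, from 4 genes, had differences below 0, with a median of -0.27 and a range of -0.82 to -0.15, and 0 of 9 were called. As 5 of the 9 belong to Slc25a15, these are not independent genes. Slc25a15 exchanges ornithine for citrulline and is best known from the urea cycle of liver. The liver and brown fat marker list had 0 of 5 genes among the brighter probe sets.

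Slc25a15 had 6 probe sets, 5 of them brighter, and the differences of these 5 were all below 0. The probe set with the smallest p of the family, 1393342_at, had log2 intensities of 7.17, 7.51 and 8.04 in Failing hearts and 7.47, 8.58 and 8.79 in Control hearts. The lowest Control value, 7.47, was that of Control replicate 4, and the other 5 Control hearts began at 8.47, above every Failing heart. The difference was -0.82 ± 0.22 (fold 0.565, 95% interval 0.407 to 0.785, adjusted p = 0.0522). Without Control replicate 4 it was -1.02 ± 0.16 (adjusted p = 0.00879). The other brighter probe sets differed by -0.69 (1381124_at), -0.53 (1374800_at), -0.27 (1393947_at) and -0.16 (1397647_at), with adjusted p of 0.113 to 0.624. In 1381124_at and 1393947_at, 5 of 6 Failing hearts lay below every Control heart. The dim probe set differed by -0.82.

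Slc25a29, a carrier of basic amino acids, had log2 intensities of 8.40, 8.76 and 8.95 in Failing hearts and 8.27, 9.35 and 9.58 in Control hearts. Again the lowest value was that of Control replicate 4, and the other Control hearts began at 9.10. The difference was -0.45 ± 0.20 (adjusted p = 0.168), and it passed without that library at -0.63 ± 0.13 (adjusted p = 0.0147). Slc25a38, which carries glycine for haem synthesis, differed by -0.20, and the 2 probe sets of Slc25a44, a branched-chain amino acid carrier, by -0.25 and -0.15. Without Control replicate 4, the groups did not overlap for 3 of the 43 members (6.98%, beside 8.74% of brighter probe sets): 1 each of Slc25a13, Slc25a15 and Slc25a29.

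Carriers of nucleotides, coenzymes and vitamins were divided in sign, with 3 of 6 brighter probe sets on each side of 0 and a median of 0.02. Slc25a42, which brings coenzyme A into the matrix, had log2 intensities of 8.64, 8.74 and 9.08 in Failing hearts and 8.75, 9.14 and 9.42 in Control hearts. In 3 of 6 Failing hearts it lay below every Control heart. The difference was -0.33 ± 0.13 (fold 0.796, adjusted p = 0.135), and it passed without Control replicate 4 at -0.40 ± 0.12 (adjusted p = 0.0423). The brighter probe sets of Slc25a32 (folate and flavin adenine dinucleotide) and Slc25a33 (pyrimidine nucleotides) differed by -0.24 and -0.11. Those of Slc25a36 (pyrimidine nucleotides) differed by 0.14 and 0.25, and that of Slc25a16 by 0.18. The promoter of Slc25a42, shown as the only gene of the brighter family with the nuclear respiratory factor 1 core among these windows, lies at chr16:19247724-19248023 on the plus strand, and the match is its last 9 bases.
Slc25a42: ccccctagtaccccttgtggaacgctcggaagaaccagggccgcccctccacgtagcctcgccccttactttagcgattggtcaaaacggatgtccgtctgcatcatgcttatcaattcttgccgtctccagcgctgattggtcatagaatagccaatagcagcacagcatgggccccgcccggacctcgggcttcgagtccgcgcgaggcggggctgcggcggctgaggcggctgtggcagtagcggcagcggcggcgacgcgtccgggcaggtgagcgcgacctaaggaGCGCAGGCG

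Iron enters mitochondria through the mitoferrins, for which no difference was detected. Slc25a28, mitoferrin 2, the form of most tissues, had log2 intensities of 8.77, 8.90 and 9.39 in Failing hearts and 8.69, 9.12 and 9.34 in Control hearts, a difference of -0.11 ± 0.14 (adjusted p = 0.643). Slc25a37, mitoferrin 1, the form of red cell precursors, had 7.17, 7.37 and 7.60 in Failing hearts and 6.99, 7.21 and 7.99 in Control hearts, a difference of 0.05 ± 0.16 (adjusted p = 0.876). Both pairs of ranges overlapped. The 95% intervals were -0.41 to 0.18 for Slc25a28 and -0.29 to 0.38 for Slc25a37.

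Slc25a39, which imports glutathione, the matrix thiol antioxidant, had 1 probe set with log2 intensities of 11.22, 11.66 and 11.87 in Failing hearts and 11.81, 12.10 and 12.15 in Control hearts. In 5 of 6 Failing hearts it lay below every Control heart. The difference was -0.42 ± 0.12 (fold 0.749, 95% interval 0.626 to 0.895, adjusted p = 0.0605) in the brighter fit. The second probe set, near the brightness limit, gave 0.00 ± 0.47 and so measured little. RefSeq lists 8 Slc25a39 pseudogenes, whose part in the signal was not tested.

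Slc25a46 is an unusual member of the outer membrane, linked to mitochondrial fission and membrane contacts. One of its 2 probe sets had log2 intensities of 11.11, 11.53 and 11.77 in Failing hearts and 11.77, 11.90 and 12.04 in Control hearts. In 5 of 6 Failing hearts it lay below every Control heart, and the groups touched at 11.77. The difference was -0.40 ± 0.12 (fold 0.758, 95% interval 0.633 to 0.908, adjusted p = 0.0696), and the second probe set differed by -0.24 ± 0.11 (adjusted p = 0.192). All 4 brighter probe sets of orphan or other members were below 0, among them Slc25a34 at -0.36 and Slc25a45 at -0.02.

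With 1 probe set per gene, the brightest by its mean over the 12 hearts, the family had 23 genes among the brighter 7109. Both Slc25a39 (-0.42 ± 0.11, adjusted p = 0.0362) and Slc25a46 (-0.40 ± 0.12, adjusted p = 0.0425) fell in Failing hearts in that fit. The background there was 4.73% of genes called lower and 5.4% called higher. These calls were narrow: on leaving out each heart in turn, Slc25a39 lost its call in 8 of 12 cases (adjusted p 0.0275 to 0.081) and Slc25a46 in 9 of 12 (0.0241 to 0.0956). They were lost without Failing replicates 1, 3, 4 or 6 or Control replicates 1, 2, 5 or 6, and for Slc25a46 also without Control replicate 3. Of the 23 genes 16 had differences below 0, the median was -0.14, and over all brighter genes the median was -0.03.

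The uncoupling-protein-related members were the one substrate group with every brighter probe set above 0. The 3 probe sets had a median of 0.33, or 0.17 without Failing replicate 1, and 0 were called. Slc25a30, known as kidney mitochondrial carrier 1, had 2 of them, and 1390416_at had log2 intensities of 11.13, 11.31 and 12.24 in Failing hearts and 10.98, 11.05 and 11.36 in Control hearts. In 2 of 6 Failing hearts it lay above every Control heart. The differences were 0.33 ± 0.17 (adjusted p = 0.235) and, for 1381973_at, 0.40 ± 0.18 (adjusted p = 0.186). Failing replicate 1 was the highest Failing heart for both, at 12.24 and 11.01, and without it the differences were 0.17 and 0.23. Slc25a14 differed by 0.18, and all 3 probe sets of Slc25a27, known mainly from neurons, were among the dimmer ones.

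Dim members could not be read closely. The 15 dimmer probe sets, which stood alone for 8 genes, had a median residual SD of 0.973 against 0.306 for the brighter ones, and their differences ran from -0.90 to 0.72. The lowest unadjusted p among them was 0.0646. Those 8 genes were Slc25a18, Slc25a21, Slc25a27, Slc25a31, Slc25a35, Slc25a41, Slc25a48 and Slc25a53. Where a gene had several brighter probe sets, 6 of 8 genes had differences of 1 sign and 2, Slc25a23 and Slc25a39, had both. Slc25a51l1, which no substrate group holds, differed by -0.14.

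Genes that work with the carriers were read from lists set by function. Family members that carry other symbols gave 0 calls over 6 brighter probe sets, with a median of -0.21. Ucp3, uncoupling protein 3 of muscle, had the smallest p of these at -1.18 ± 0.38 (adjusted p = 0.0846). Failing hearts averaged 7.12 ± 1.00 and Control hearts 8.30 ± 0.38 in log2 intensity (SD, n = 6 each), and its second probe set differed by -0.66. Once Control replicate 4 was left out, 1 of the 6 passed as lower, beside 6.75% of brighter probe sets. It was a probe set of Mtch2, an outer membrane member, at -0.40 (adjusted p = 0.0356), named after its values were seen.

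The list of import machinery, most of it from the route that inserts carriers into the membranes, leaned lower throughout. All 18 of its brighter probe sets lay below 0, with a median of -0.31, and 2 fell. The list measured 13 genes, some with several probe sets, so the 18 are not independent. One of the 18 was of Timm44 (-0.19), which serves import into the matrix and not carrier insertion. Tomm40, the pore of the outer membrane translocase, averaged 10.08 ± 0.18 in Failing hearts and 10.57 ± 0.19 in Control hearts in log2 intensity, a difference of -0.48 ± 0.12 (adjusted p = 0.042). Tomm22, a receptor of that complex, averaged 11.79 ± 0.15 in Failing hearts and 12.18 ± 0.11 in Control hearts, a difference of -0.39 ± 0.10 (adjusted p = 0.0473). Both calls were narrow: Tomm40 lost its call on leaving out 10 of the 12 hearts in turn and Tomm22 on leaving out 9, while 8 of the 18 probe sets passed without Control replicate 4. The background for lower calls was 1.48% over 12 hearts and 6.75% without that library.

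Partners across the outer membrane, other inner membrane carriers and regulators gave few calls. Outer membrane and phosphotransfer partners gave 0 of 11, with a median of -0.22. Tspo, the translocator protein of the outer membrane, had the smallest p there at 0.35 ± 0.11 (adjusted p = 0.0735). Without Control replicate 4 the median was -0.31 and 1 of 11 passed as lower, beside 6.75% of brighter probe sets. It was the channel Vdac3 at -0.42 (adjusted p = 0.0311), named after its values were seen. Other inner membrane carriers gave 0 of 19, with a median of -0.27. Slc8b1, the mitochondrial sodium/calcium exchanger, had the smallest p at 0.50 ± 0.14 (adjusted p = 0.0551). Without Control replicate 4, 2 of the 19 passed as higher (beside 6.67%) and 4 as lower (beside 6.75%).

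Among 13 brighter probe sets for regulators of mitochondrial genes, 1 fell, beside 1.48% of all brighter probe sets. The 1 was Ppargc1b, a coactivator of mitochondrial gene transcription. It averaged 8.45 ± 0.24 in Failing hearts and 9.21 ± 0.18 in Control hearts in log2 intensity. The difference was -0.76 ± 0.13 (adjusted p = 0.0182). The call was lost without Control replicate 1 or Control replicate 6 (adjusted p up to 0.0553). With Control replicate 4 left out, 4 of the 13 passed as lower, beside 6.75% of brighter probe sets. The list median was then -0.34, beside -0.25 over 12 hearts. As a yardstick within the same membrane, 46 brighter probe sets of genes whose symbols begin with Nduf were taken. Most of these genes, though not all, encode subunits or assembly factors of complex I. The median difference of the 46 was -0.31, with 44 below 0. Of these 46, 2 fell (beside 1.48%), Ndufa11 (-0.52) and Ndufaf4 (-0.62), which were named after their values were seen. Ndufa11 lost its call on leaving out 10 of the 12 hearts in turn and Ndufaf4 on leaving out 4. Without Control replicate 4, 24 of the 46 passed as lower, beside 6.75% of brighter probe sets. The difference between the carrier median of -0.15 and these list medians was not tested.

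**Figure D4:**
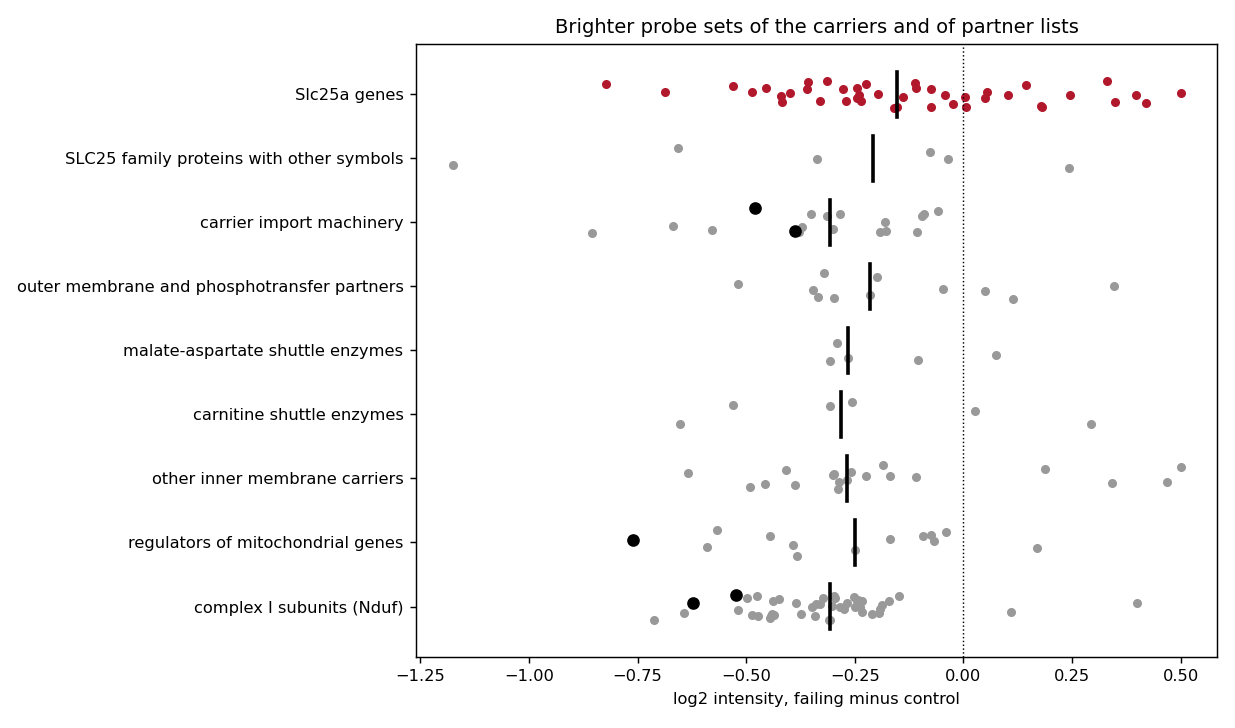
Differences in log2 intensity, Failing minus Control, of brighter probe sets in the carrier family and in the lists set beside it. Each point is a probe set, bars are list medians, and large black points are called probe sets. The carrier family has a median of -0.15 and 0 calls. The import machinery, with 13 genes measured, has 18 of 18 probe sets below 0 with 2 calls.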

How the data were processed

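Total RNA of rat heart was labelled with biotin and hybridised to 1-colour arrays, per the labels' protocols. The authors deposited 1 table of linear intensity values for 31099 probe sets. RMA is named, without a version, per the submitters' processing notes, whereas the deposited intensities are linear with a 2% trimmed mean of 500.19 to 500.23 on every array, so the summary method is not known. Such scaling hides a shift of most genes in 1 direction. Array median intensities were 120.8 to 144.2. No detection calls, scan dates or batches were given, and precision is limited by how many arrays there were.

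The log2 of the deposited intensity was used, without an offset. After leaving out 57 control probe sets, 31042 were tested by moderated linear models with group alone (R 4.3.3, limma 3.58.1, two-sided, Benjamini-Hochberg), and again over the 15521 brighter ones (intensity about 122.63 or more). The code was tested on simulated data. The array annotation gave 20826 probe sets 1 symbol, 436 several and 9780 none, and all 40 member genes matched RefSeq GRCr8 by gene identifier with 0 changed symbols. Probe sets are given no coordinates, since the files' genome build is not given in the sources used here. Figures were drawn with matplotlib 3.10.9.

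The members, lists and tests were chosen with earlier results of these data known. Values are given for members with an unadjusted p under 0.05, for the smallest p in each substrate group and for 12 genes in any case, and for partner genes that were called or had the smallest p of their list. The replicate numbers of both groups run alike, but same-numbered hearts did not deviate together (correlations -0.06 to 0.232, 1 of 6 over 0.1), so they were not paired. Alternatives were quantile and median normalization, an offset, other brightness limits, 1 probe set per gene, variance models, array weights, a rank-sum test, an RNA quality covariate, a replicate block and leaving out each heart. Control replicate 4 was singled out after seeing the data, and values without it for overlap and for partner lists were added then.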

Additional observations from a re-analysis of the deposited data

Results flagged for a closer look

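In 6 of the 50 member groups examined (12%), the highest or lowest heart stood far from the other hearts of its group by Dixon's ratio, which chance gives in about 1 in 20 groups. Control replicate 4 was that heart in 4 cases. Its log2 intensity of Slc25a4 was 14.89, where the nearest Control heart had 15.33. That of Slc25a15 (1393342_at) was 7.47, with the nearest at 8.47, and that of Slc25a29 was 8.27, with the nearest at 9.1. In Slc25a37 it was the highest Control heart at 7.99, with the nearest at 7.32. Among Failing hearts, replicate 1 had 11.01 for Slc25a30 (1381973_at), with the nearest at 10.09. Failing replicate 6 had 6.33 for the dim Slc25a31 probe set, with the nearest at 4.34.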

How the results depend on the processing

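Over all probe sets the count of called carriers stayed at 0 under every alternative run but 1. The exception was the limit of mean log2 intensity at or above 10. It called 2 of 12 members, both lower, beside 680 of all 4547 probe sets. In the brighter fit, with 0 calls, that limit also gave these 2. An offset of 32 gave 1 of 43 members, beside 789 of all 15521 probe sets. The trended robust variance gave 3 (beside 1014), array weights 2 (beside 1584) and the RNA quality covariate 1 (beside 863). With 1 probe set per gene there were 2 of 23, beside 720 of 7109. All these member calls were lower, while the counts beside them hold both directions. Why the counts changed was not tested. Leaving out single hearts gave 0 to 7 calls. There were 4 without Failing replicate 5 (beside 1463 of 15521 probe sets) and 7 without Control replicate 4 (beside 2083). The replicate block gave 0 calls, a median of -0.15 and a lowest adjusted p of 0.0598, and changed no call of a member. The median member difference ran from -0.21 to -0.10 on leaving out hearts. For the 23 named probe sets, the normalizations, offset, array weights, RNA quality covariate, replicate block and left-out hearts gave 414 values, of which 389 kept their direction and side of the threshold, 15 newly passed and 10 turned sign. Those that turned were near 0: Slc25a4 was 0.017 after quantile normalization and -0.141 to 0.017 on leaving out hearts, Slc25a5 was -0.022 to 0.053 and Slc25a37 was -0.015 to 0.185. Dim probe sets, at a residual SD of 0.973, limit what can be said of 8 genes.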
